A study of Mus musculus with 46 samples.

Results

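The liver arrays of mice fed HFD + inul PB were compared with those of mice fed HFD. The 12 liver arrays whose titles name these diets were chosen, 6 of each diet, of 46 arrays in the series and 24 of liver. All mice were male C57BL/6, an inbred strain, aged 12 weeks at the start, housed singly, and fed for 8 weeks, so that they were 20 weeks old at the end. Fat gave 45% of the energy of HFD, which also contained cellulose and corn starch. In HFD + inul PB corn starch and cellulose, 5% of the weight each, were taken out for inulin propionate ester and inulin butyrate ester, 5% of each. HFD + inulin held plain inulin in the same place, and in LFD fat gave 10% of the energy. Their 12 liver arrays share the fit. Each Agilent mouse array carried Cy3-labelled RNA of 1 liver sample and no reference, and the brightness of a spot reports the RNA bound to its probe. The study describes 6 mice per diet for the arrays, while the labels do not tie an array to a mouse, so the P values measure the spread between these arrays.

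Inulin is a fructose polymer that gut bacteria ferment to short chain fatty acids, and an inulin ester releases the acid it carries when the bond is cut in the large intestine. The portal vein brings these acids to the liver, where propionate enters gluconeogenesis and butyrate enters fatty acid oxidation and ketone body formation. Liver of mice on a high fat diet is known for stored triglyceride, recruited macrophages and a raised acute phase response.

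In the labelled liver arrays the hepatocyte markers were bright. All 16 hepatocyte identity genes were well above background on at least 12 of 24 liver arrays, led by Alb at a mean normalised log2 signal of 18.70. Between 46.5 and 50.4% of spots on the HFD arrays were well above background, and between 46.8 and 49.7% on HFD + inul PB. Probe IDs with a fold over 1.5 together with an unadjusted limma P under 0.01 were called changed. By this rule 161 of 55681 probe IDs differed between HFD + inul PB and HFD (0.289%), 88 higher (0.158%) and 73 lower (0.131%). The count depended on the background treatment, and was 39 under normexp, 52 where no background was corrected and 54 for the values the authors processed. None passed a Benjamini-Hochberg adjusted P of 0.05 over all probes, where the lowest adjusted limma P was 0.454. At an unadjusted P under 0.05 limma listed 1741 probe IDs (3.13%). Single genes are therefore described as ranked differences, and "rose" and "fell" below mean only that the unadjusted criteria were met.

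Some arrays stood apart by markers of other tissues. Exocrine pancreas genes on HFD + inul PB replicate 4 had a median 5.26 log2 units above the HFD mean, while the other 5 arrays of that diet lay between -0.06 and 0.05. Its adipocyte markers were also raised, by 2.43, and those of HFD replicate 3 by 1.55. Raised markers were not particular to these diets. The pancreas median was 10.13 on LFD replicate 4 and 4.78 on HFD + inulin replicate 6. The adipocyte median was 2.86 on HFD + inulin replicate 4, and 1.86 and 1.54 on LFD replicates 3 and 4. These arrays stayed in the fit and in the comparisons with HFD + inulin and LFD. Of the pancreas list, 10 of 11 genes had a higher mean on HFD + inul PB. The median difference was 1.12, but 0.06 without replicate 4 of that diet. The defining pancreas genes Cpa1 and Cela2a were not well above background on any HFD array and were so on 1 HFD + inul PB array. Several results, but not all, are given also without both HFD + inul PB replicate 4 and HFD replicate 3, a choice made after seeing the data. These are the arrays said below to have stood apart. Without them 149 probe IDs were changed, 82 higher and 67 lower.

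**Figure D1:**
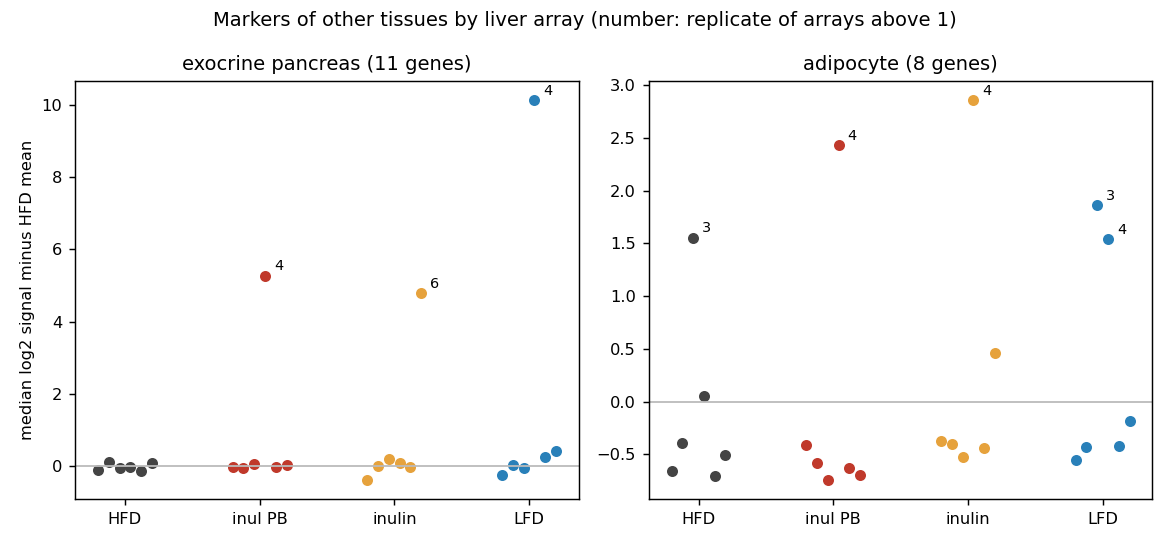
Median log2 signal of exocrine pancreas genes (left) and adipocyte genes (right) relative to the HFD mean, one point for each of 24 liver arrays by diet, with the replicate number beside arrays above 1. HFD + inul PB replicate 4 lies at 5.26 for pancreas and at 2.43 for adipocyte genes, and HFD replicate 3 at 1.55 for adipocyte genes. The highest points belong to other diets, LFD replicate 4 for pancreas (10.13) and HFD + inulin replicate 4 for adipocyte genes (2.86).

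The arrays lay on 3 slides, each with 2 arrays of every diet, so each difference can also be taken within a slide. On every slide the HFD arrays and the HFD + inul PB arrays held the same positions, so slide position and diet cannot be told apart. Whole liver was measured, and fewer cells of a type and less RNA per cell cannot be told apart.

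Acute phase genes had lower mean signal with HFD + inul PB. These genes encode plasma proteins that hepatocytes release in inflammation. Of 28 measured, 26 had a lower mean, with a median difference of -0.09 log2 units (HFD + inul PB minus HFD) against 0.00 over all 20887 genes, of which 49.1% had a lower mean. The list's median was below the lowest HFD array on 5 of 6 HFD + inul PB arrays, which lay between -0.28 and -0.08 where HFD lay between -0.10 and 0.12. Within slides the list's median difference was -0.10, -0.17 and -0.10. Without the 2 arrays that stood apart, 23 of 28 members had a lower mean and the median was -0.08, and without HFD + inul PB replicate 4 alone it was -0.06.

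The members of this list that met the criteria were the serum amyloid A genes Saa1 and Saa2, apolipoproteins of the acute phase high-density lipoprotein. The normalised log2 signal of Saa1 ran from 12.89 to 14.50 on HFD (median 13.32) and from 12.28 to 13.15 on HFD + inul PB (median 12.50). Of the HFD + inul PB arrays 5 of 6 lay below every HFD array, and the highest overlapped the HFD range. Saa1 fell by 0.87 on the log2 scale (SE 0.28, limma P = 0.00501, adjusted P = 1, exact permutation P = 0.00866). The log2 signal of Saa2 ran from 12.81 to 14.73 on HFD (median 13.46) and from 12.21 to 13.30 on HFD + inul PB (median 12.51). Here 4 of 6 HFD + inul PB arrays lay below the HFD range. Saa2 fell by 0.96 (SE 0.32, limma P = 0.00710, adjusted P = 1, exact permutation P = 0.0152). Saa1 and Saa2 are near-identical copies, and their probes may not keep their transcripts apart. Both had differences of the same sign on all 3 slides, widest on slide 2 (-1.67 for Saa1 and -1.84 for Saa2) and between -0.41 and -0.63 on the others. Both no longer met the criteria without the 2 arrays that stood apart (log2 difference -0.80 and -0.87). Saa1 also missed the limit on P when replicate 2 or 4 of HFD, or replicate 3, 4 or 5 of HFD + inul PB, was left out, with differences from -0.84 to -0.66, and Saa2 without these or replicate 3 of HFD or replicate 2 of HFD + inul PB, and with slide as a block.

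Lcn2, which encodes the iron-siderophore binding lipocalin 2, ran from 8.89 to 10.95 on HFD (median 9.52) and from 8.38 to 9.04 on HFD + inul PB (median 8.80), with 4 of 6 below every HFD array. Its difference of -0.90 (SE 0.33, limma P = 0.0123, exact permutation P = 0.0108) missed the limit of 0.01. At an unadjusted limma P under 0.05 the list also held Saa3 (-0.63), the metalloreductase gene Steap4 (-0.31) and Hp, which encodes haptoglobin (-0.16), so that 6 of 28 members passed in the lower direction and 0 in the higher, where 1.73% of all genes passed in the lower direction and 1.81% in the higher. The metallothioneins Mt1 and Mt2 had differences of -0.87 (SE 0.46) and -0.67 (SE 0.46). The fibrinogen chains Fga, Fgb and Fgg lay between -0.10 and -0.04, each within 1.5 times its SE of 0. Hamp, which encodes the iron hormone hepcidin, had a difference of 0.40 (SE 0.27). Complement genes, also made by hepatocytes, had 10 of 19 lower means and a median of -0.01, a sign that turned with the scaling, and C4b alone had an unadjusted limma P under 0.05 (-0.16, SE 0.08).

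**Figure D2:**
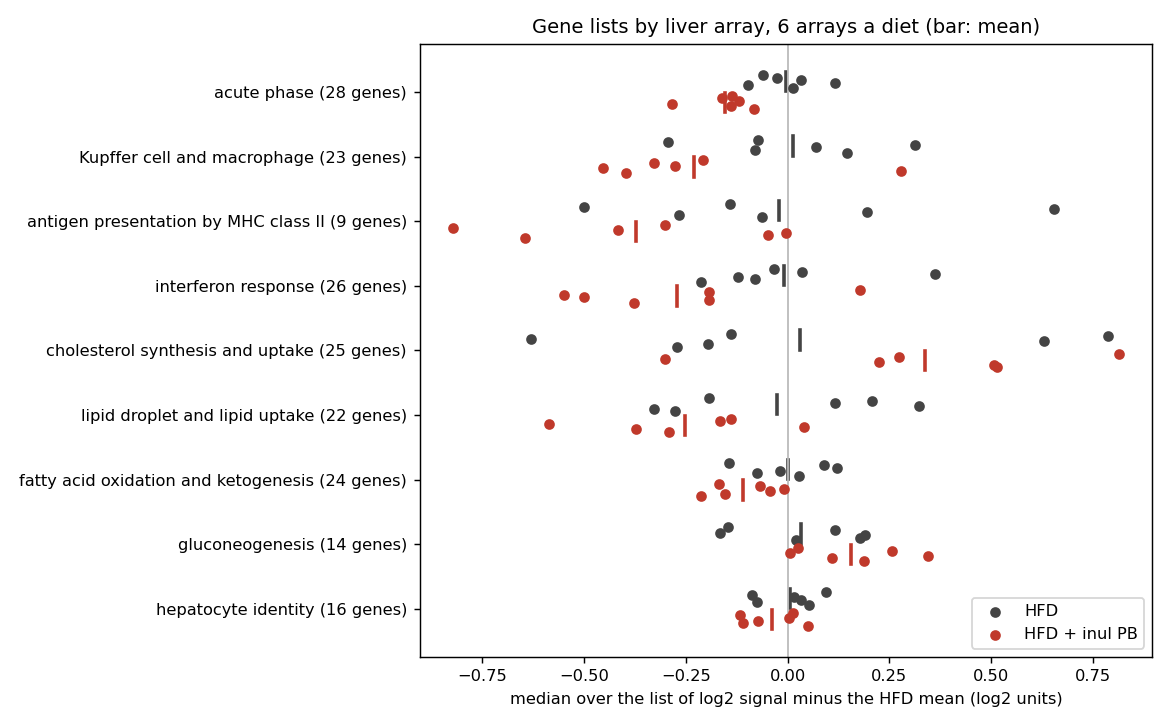
Median over each gene list of the log2 signal minus the HFD mean, one point per liver array, HFD in grey and HFD + inul PB in red, with a bar at the mean of the 6 arrays. The acute phase points of HFD + inul PB lie between -0.28 and -0.08, all but one below the HFD range, while the cholesterol points of the diets overlap widely (-0.63 to 0.79 on HFD and -0.30 to 0.81 on HFD + inul PB).

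Macrophage genes also had lower means with HFD + inul PB. Of 23 measured Kupffer cell and macrophage genes, 21 had a lower mean, with a median of -0.21. The exceptions were Marco (0.42, SE 0.47) and Gpnmb (0.19, SE 0.40). Of the members 2 had an unadjusted limma P under 0.05, both in the lower direction. The first, Itgax, encodes the integrin CD11c of dendritic cells and recruited macrophages. Its log2 signal ran from 6.66 to 8.09 on HFD (median 7.21) and from 6.31 to 6.64 on HFD + inul PB (median 6.50), so the diets did not overlap. Itgax fell by 0.83 (SE 0.24, limma P = 0.00214, adjusted P = 1, exact permutation P = 0.00216, the smallest P that the splits of 12 arrays can give). Over all probes 0.0648% had every HFD + inul PB array below every HFD array. Its differences within slides were -0.37, -1.39 and -0.72, and without the 2 arrays that stood apart it was -0.70 and still met the criteria, while with normexp background correction it was -0.54 and missed the fold limit. The second, Ccr2, the receptor that recruits monocytes, had a difference of -0.75 (SE 0.31) but was well above background on only 2 of 6 HFD + inul PB arrays.

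The resident Kupffer cell genes Clec4f (-0.11, SE 0.20), Timd4 (-0.27, SE 0.21) and Vsig4 (-0.22, SE 0.21) and the general macrophage genes Adgre1 (-0.13, SE 0.18) and Csf1r (-0.16, SE 0.16) had differences within 1.5 SE of 0. Of the genes tied to lipid-associated macrophages, Trem2 had a difference of -0.47 (SE 0.33), and Gpnmb was well above background on 1 of 24 liver arrays. By array, the list's median lay between -0.45 and 0.28 on HFD + inul PB and between -0.29 and 0.31 on HFD. HFD + inul PB replicates 1 (-0.21), 3 (-0.28) and 5 (0.28) lay within the HFD range, and replicates 2 (-0.33), 4 (-0.45) and 6 (-0.40) below it. The shift was widest on slide 2 (-0.51), which holds HFD replicate 3, the highest HFD array (0.31), and was -0.05 on slide 1 and -0.11 on slide 3. Without the 2 arrays that stood apart it was -0.13, with 20 of 23 lower.

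Genes of antigen presentation by MHC class II, which macrophages, dendritic cells and B cells carry, were also lower in most cases. Of 9 members 7 had a lower mean, with a median of -0.37. The other 2 had a higher mean, 1 of them by 0.60, further from 0 than any lower member. The chains H2-Aa, H2-Ab1 and H2-Eb1 each had a difference of -0.43 (SE 0.24), and the invariant chain Cd74 one of -0.37 (SE 0.24). H2-DMa, a peptide loading chain, was the member with an unadjusted limma P under 0.05 (-0.50, SE 0.22). HFD replicate 3 had the highest list median of the HFD arrays (0.65), and without it the list's median difference was -0.21. The lymphocyte and neutrophil list had 11 of 19 higher means and a median of 0.03, a sign that changed under quantile normalisation and with weighted arrays. Its T cell gene Cd3d had a difference of -0.45 (SE 0.24).

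The chemokine gene Cxcl10, which draws T cells and is induced by interferon, had the largest fall among the named genes that met the criteria. Its log2 signal ran from 9.05 to 11.11 on HFD (median 9.46) and from 7.89 to 9.01 on HFD + inul PB (median 8.62), and the diets did not overlap. Cxcl10 fell by 1.11 (SE 0.34, limma P = 0.00380, adjusted P = 1, exact permutation P = 0.00216). HFD replicate 3 was the high array at 11.11, where the other 5 lay between 9.05 and 9.80. Without it the difference was -0.83, and without both arrays that stood apart -0.69. Within slides it was -0.51, -2.09 and -0.75. Without HFD + inul PB replicate 4 alone it was -0.98, and under each of these 3 omissions Cxcl10 missed the limit on P. The macrophage list moved the same way as these genes, and its part in the acute phase, chemokine and interferon differences was not tested.

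Interferon response genes had lower means in 24 of 26 cases, with a median of -0.27. These genes are switched on when factors activated by interferon bind the interferon-stimulated response element in their promoters. That element was searched for on both strands as the letters GAAA, any 2 bases and GAAA again, in RefSeq promoter windows (build GRCm38.p6), which run from 250 bases before to 50 after a start of transcription. Of 28 genes on the list 20 had a window, and 11 of these held at least 1 match, or 55.0%, against 3.99% of 27025 genes with a window. The promoters of 3 list members and of Cxcl10, which is not on the list, are shown, each 5′ to 3′ on the strand of its gene, upstream of the start, with the matches in capitals, because they carry the element. A match on the opposite strand reads TTTC, 2 bases and TTTC.
Ifit1, chr19:34640755-34640843, plus strand: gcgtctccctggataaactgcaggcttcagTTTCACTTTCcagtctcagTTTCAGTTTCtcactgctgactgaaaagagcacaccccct
Ifit3, chr19:34583343-34583446, plus strand: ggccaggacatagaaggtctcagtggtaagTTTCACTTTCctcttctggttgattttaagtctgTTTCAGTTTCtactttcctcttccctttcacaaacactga
Rsad2, chr12:26456533-26456602, minus strand: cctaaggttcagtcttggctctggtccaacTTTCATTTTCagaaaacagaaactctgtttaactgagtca
Cxcl10, chr5:92349063-92349132, minus strand: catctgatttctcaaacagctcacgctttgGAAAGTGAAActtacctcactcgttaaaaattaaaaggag
Ifit1 and Ifit3 each held 2 matches in the stretch shown, and Rsad2 and Cxcl10 1 each. A match is a description of the sequence and was not tested for binding.

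At an unadjusted limma P under 0.05 the list held 5 members, all lower. Among them were the antiviral RNA-binding genes Ifit1 (-0.61, SE 0.27), Ifit2 (-0.49, SE 0.21) and Ifit3 (-0.51, SE 0.22), and the chaperone gene Rtp4 (-0.44, SE 0.16). Rsad2, which encodes viperin, had a difference of -0.59 (SE 0.31) and the GTPase gene Igtp one of -0.60 (SE 0.33). Their regulators Stat2 (-0.24, SE 0.13), Irf9 (-0.22, SE 0.11) and Irf7 (-0.14, SE 0.19) had smaller differences, and the RNA sensors Ifih1 and Ddx58 had 0.02 and 0.01.

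The shift of the interferon list was uneven between slides. It was -0.75 on slide 2, -0.01 on slide 1 and -0.10 on slide 3. By array, the list's median lay between -0.55 and 0.18 on HFD + inul PB and between -0.21 and 0.36 on HFD, where HFD replicate 3 was the highest. HFD + inul PB replicate 1 lay above 5 of 6 HFD arrays. Without HFD replicate 3 and HFD + inul PB replicate 4 the median was -0.18, with 22 of 26 members lower.

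**Figure D3:**
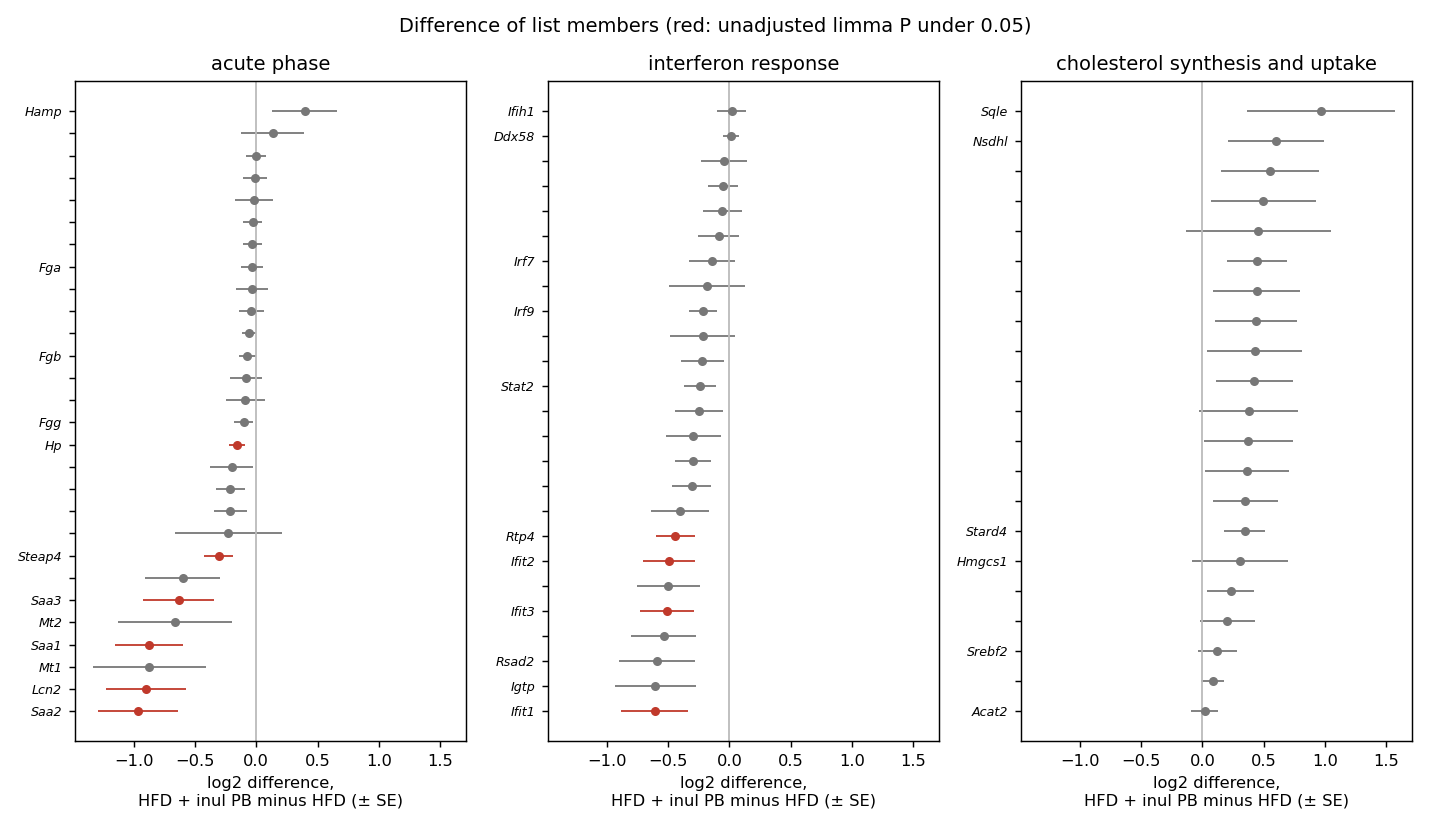
Log2 difference (HFD + inul PB minus HFD, ± SE from the limma fit) of members of the acute phase (28 shown), interferon response (25 shown) and cholesterol synthesis and uptake (21 shown) lists, in red where the unadjusted limma P is under 0.05, with names for the genes described. Most acute phase and interferon genes lie below 0, with 6 and 4 in red, and the cholesterol genes shown lie above 0 with none in red.

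Every measured gene of cholesterol synthesis and uptake had a higher mean with HFD + inul PB, 25 of 25, with a median of 0.38, against 50.9% of all genes. None had an unadjusted limma P under 0.05, and the spread between arrays was wide. The factor SREBP2 drives this pathway when cell sterol is low. The largest difference was that of Sqle, squalene epoxidase (0.97, SE 0.60), and Nsdhl, a sterol dehydrogenase, had 0.60 (SE 0.39). Stard4, a cholesterol carrier, was closest to the limit (0.35, SE 0.17). Srebf2, which encodes the factor itself, had 0.12 (SE 0.16), and Acat2 the smallest difference, 0.02.

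These genes moved together from array to array within each diet. The list's median lay between -0.63 and 0.79 on HFD and between -0.30 and 0.81 on HFD + inul PB, so that the diets overlapped. On HFD, replicates 2 and 4 were high (0.79 and 0.63) and replicate 3 was low (-0.63). On HFD + inul PB 5 of 6 arrays lay above 0 and replicate 3 below it. The shift was 0.84 on slide 3, 0.27 on slide 1 and -0.00 on slide 2. Single arrays set its size: it was 0.58 without HFD replicate 2, 0.24 without HFD replicate 3 and 0.23 without HFD + inul PB replicate 1, when 22 of 25 members were higher. Without the 2 arrays that stood apart it was 0.26, with 24 of 25 higher. The 25 members are therefore not separate observations. Hmgcs1, HMG-CoA synthase (0.31, SE 0.39), was the 1 member of 17 with a promoter window that held the sterol regulatory element searched for, TCACNCCAC on both strands, against 1.44% of all genes. It is shown as the match found, which is in capitals.
Hmgcs1, chr13:119690184-119690252, plus strand: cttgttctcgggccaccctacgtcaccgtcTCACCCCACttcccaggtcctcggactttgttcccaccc
The other 16 genes do not hold these letters in this window. The interleukin 6 response element TTCCNGGAA, searched in the same way, was found in 2 of 24 acute phase genes, Fga and Steap4, against 1.35% of all genes. The acute phase windows held the sterol element (Itih3 and Saa3) and the interferon element (Saa3 and Saa4) as often, in 2 of 24 genes each. In the cholesterol list the interferon element was found in 1 of 17 genes (Ebp), as was the sterol element. Matches of different motifs overlapped in 3 of all 32851 windows.

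**Figure D4:**
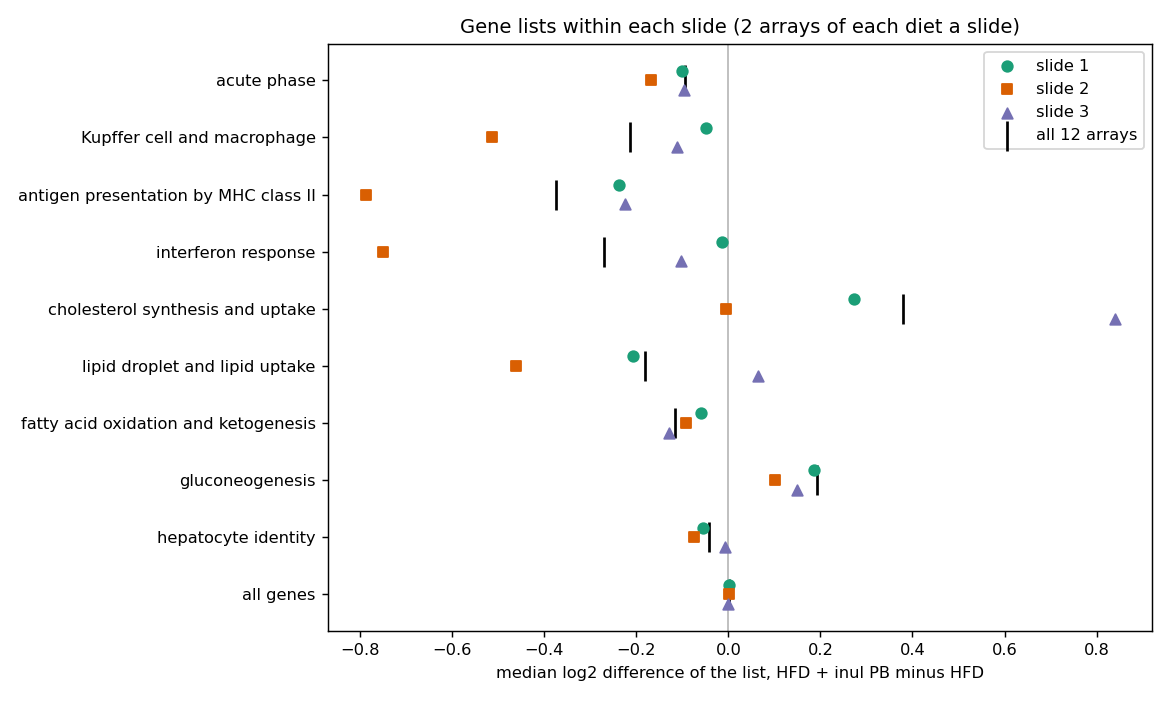
Median log2 difference of each gene list (HFD + inul PB minus HFD) within slides 1, 2 and 3, where each slide holds 2 arrays of each diet, with a black bar for all 12 arrays. The cholesterol list, the lipid droplet list and all genes changed sign between slides, and the other lists shown kept theirs. The interferon list was widest on slide 2 (-0.75) and near 0 on slide 1 (-0.01), and the cholesterol list ran from -0.00 to 0.84.

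Among genes of fat use, Fabp2 had the lowest P of all probes. It encodes a fatty acid binding protein best known from intestine. Its log2 signal ran from 15.23 to 15.64 on HFD (median 15.38) and from 14.60 to 14.99 on HFD + inul PB (median 14.78), and the diets did not overlap. Fabp2 fell by 0.61 (SE 0.10, limma P = 8.16e-06, adjusted P = 0.454, exact permutation P = 0.00216). The difference was -0.62, -0.78 and -0.43 within slides and -0.61 without the arrays that stood apart. It lies near the fold limit of 1.5, with a fold of 1.53, and under 75th percentile scaling, or without replicate 2 or 4 of HFD, or replicate 3 or 5 of HFD + inul PB, it no longer passed that limit (differences from -0.58 to -0.56). Fabp1, the main liver form, had a difference of -0.03 (SE 0.08).

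Genes of fatty acid oxidation and ketogenesis had lower means in 21 of 24 cases, with a small median of -0.12. Their array medians lay between -0.21 and -0.01 on HFD + inul PB and between -0.14 and 0.12 on HFD, with overlap, and the median was negative on every slide (-0.06, -0.09 and -0.13). Of the members 2 had an unadjusted limma P under 0.05, both lower, among them Eci1, an enoyl-CoA isomerase (-0.22, SE 0.10). Cpt1a, the entry step of fatty acids into mitochondria, had -0.16 (SE 0.15) and Ppargc1a, a coactivator of these genes, 0.35 (SE 0.24). Among other PPAR alpha targets 12 of 18 were lower, with a median of -0.06, the widest being the hormone gene Fgf21 (-0.91, SE 0.82) and the omega-hydroxylase genes Cyp4a10 (-0.89, SE 0.51) and Cyp4a31 (-0.86, SE 0.51), near-identical copies.

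Of lipid droplet and lipid uptake genes 16 of 22 were lower, with a median of -0.18 and none with an unadjusted limma P under 0.05. The droplet coat genes Plin2 (-0.31, SE 0.20) and Plin4 (-0.63, SE 0.46), the lipase inhibitor genes G0s2 (-0.52, SE 0.38) and Hilpda (-0.32, SE 0.15), the fatty acid transporter gene Cd36 (-0.46, SE 0.27) and the adipogenic factor gene Pparg (-0.37, SE 0.18) had lower means. The list's median was -0.46 on slide 2, -0.21 on slide 1 and 0.06 on slide 3. Genes of fatty acid synthesis had 12 of 23 higher means and a median of 0.01, with Fasn at 0.52 (SE 0.57), Scd1 at -0.28 (SE 0.28) and Pnpla3 at -0.84 (SE 0.88). That sign turned with the background treatment and without both arrays that stood apart. In the lipoprotein list 14 of 16 were lower, with a median of -0.06, and Apom, an apolipoprotein of high-density lipoprotein, was higher (0.24, SE 0.10).

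Genes that handle propionate and butyrate had 15 of 25 lower means and a median of -0.04. Acat1, the mitochondrial thiolase that works on both ketone bodies and butyrate carbon, had a difference of -0.28 (SE 0.09) and Acsm3, a medium chain acyl-CoA synthetase that takes butyrate, one of -0.24 (SE 0.11). Neither reached a fold of 1.5. The log2 signal of Acat1 ran from 13.56 to 13.82 on HFD and from 13.12 to 13.70 on HFD + inul PB, with overlap. The propionate carboxylase genes Pcca (-0.06, SE 0.09) and Pccb (-0.17, SE 0.12) and Mmut, methylmalonyl-CoA mutase (-0.06, SE 0.10), had differences within 1.5 SE of 0. The acetate-activating genes Acss1 (0.51, SE 0.31) and Acss2 (0.42, SE 0.38) had higher means. The receptors for these acids were dim in liver: Ffar2 was well above background on 0 of 24 arrays and Hcar2 on 6, while Ffar3, on all 24, had a difference of 0.10 (SE 0.27).

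Gluconeogenesis genes had higher means in 10 of 14 cases, with a median of 0.19 that was positive on each slide (0.19, 0.10 and 0.15). Pck1, the rate-limiting carboxykinase, had 0.35 (SE 0.22), G6pc 0.25 (SE 0.40), the serine dehydratase gene Sds 0.45 (SE 0.28) and Pcx, pyruvate carboxylase, -0.17 (SE 0.09). None had an unadjusted limma P under 0.05, and leaving out single arrays brought the median to between 0.11 and 0.21. Glycolysis and sugar use had 11 of 20 lower means and a median of -0.02, with Ldha, lactate dehydrogenase, at -0.19 (SE 0.08). In the urea cycle and amino acid list 16 of 25 were higher, with a median of 0.05. Cth, which makes cysteine from cystathionine (0.32, SE 0.10), and Gls2, liver glutaminase (0.28, SE 0.11), had the lowest P. Bile acid genes had 17 of 27 lower means and a median of -0.06, led by the basolateral efflux pump gene Abcc3 (-0.43, SE 0.14, limma P = 0.00621, exact permutation P = 0.00866), whose fold was under 1.5. Cyp7a1, the rate-limiting enzyme of bile acid synthesis, had a difference of 0.08 with an SE of 0.85.

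Circadian clock genes varied more between arrays of one diet than between diets. Of 20 members 13 had a higher mean, with a median of 0.28. Members known to peak around the end of the light phase, Usp2 (1.45, SE 0.83), Dbp (0.79, SE 0.65) and Per1 (0.58, SE 0.48), had higher means, and Arntl, which peaks at the opposite time, a lower one (-0.96, SE 0.62). Tspan4 was the member with an unadjusted limma P under 0.05 (0.38, SE 0.15). The log2 signal of Usp2 spanned from 6.82 to 11.65 on HFD alone. The time of sampling of each mouse is not given in the labels, and its part in these differences was not tested.

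Among single genes that rose, Tuba8, an alpha tubulin, had the largest difference. Its log2 signal ran from 5.77 to 7.15 on HFD (median 6.04) and from 7.61 to 9.35 on HFD + inul PB (median 7.78), with no overlap. Tuba8 rose by 1.94 (SE 0.40, limma P = 8.52e-05, adjusted P = 1, exact permutation P = 0.00216). It was 1.60, 2.57 and 1.66 within slides. Over all probes 0.0576% had every HFD + inul PB array above every HFD array.

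Enho encodes adropin, a secreted peptide of energy balance made in liver. Its log2 signal ran from 11.46 to 13.35 on HFD (median 13.10) and from 13.37 to 14.26 on HFD + inul PB (median 13.82), with no overlap but a narrow gap. Enho rose by 1.08 (SE 0.31, limma P = 0.00205, adjusted P = 1, exact permutation P = 0.00216), and a second probe had a difference of 1.16 (P = 0.00169). HFD replicates 4 and 2 were low (11.46 and 12.17), and without replicate 4 the difference was 0.82. Within slides it was 1.05, 1.61 and 0.58, and it met the criteria under all alternatives tried.

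Smim1, a small membrane protein of red cells, had narrow groups. Its log2 signal ran from 7.10 to 7.49 on HFD and from 7.94 to 8.29 on HFD + inul PB (medians 7.22 and 8.06), with no overlap. Smim1 rose by 0.83 (SE 0.18, limma P = 0.000112, adjusted P = 1, exact permutation P = 0.00216), and within slides by 0.88, 0.78 and 0.82. The red blood cell list had 6 of 8 higher means and a median of 0.26, and its members Hbb-bt (0.39, SE 0.24) and Slc4a1 (0.23, SE 0.15) did not pass, and the part of blood in the Smim1 difference was not tested. Ccnd1, the cyclin D1 that passes growth signals to the cell cycle, ran from 9.73 to 10.40 on HFD and from 10.76 to 11.29 on HFD + inul PB, with no overlap. Ccnd1 rose by 0.80 (SE 0.22, limma P = 0.00157, exact permutation P = 0.00216). The cell cycle list, Ccnd1 included, had a median of 0.13, with 17 of 26 higher, and no other member had an unadjusted limma P under 0.05.

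Of the other rises, those of the kinase gene Wnk4 (1.20, exact permutation P = 0.00649), the stress response gene Ier3 (1.27, P = 0.00649), the Nodal antagonist gene Lefty1 (1.12, P = 0.0130) and Rgs7bp (0.88, P = 0.00216) came from dim probes. Rgs7bp was not well above background on any HFD array, and with normexp background correction its difference was 0.29. Under no background subtraction none of these 4 met the criteria. Lefty1 also missed them without both arrays that stood apart, and Wnk4 without replicate 2 or 4 of HFD. The receptor gene Adgrf1 (1.00, exact permutation P = 0.0108), the BMP signal factor gene Smad9 (0.97, P = 0.0173) and Cyp1a1, a P450 of the aryl hydrocarbon receptor (0.82, P = 0.0476), rose with overlapping groups. Cyp1a1 missed the criteria under 75th percentile scaling, quantile normalisation, each other background treatment (the values the authors processed included) and a fit of only these diets, with a difference down to 0.43, and in omissions of replicate 1, 3, 4 or 6 of HFD or replicate 1, 2 or 5 of HFD + inul PB. Adgrf1 missed them without replicate 2 or 4 of HFD or replicate 3 or 6 of HFD + inul PB (differences from 0.80 to 0.94), and Smad9 with weighted arrays and without replicate 4 of HFD or replicate 2 of HFD + inul PB (0.74 to 0.85). Cox7a1, a cytochrome oxidase subunit of heart, muscle and brown fat, rose by 0.75 (SE 0.24, limma P = 0.00507, exact permutation P = 0.00866). Its log2 signal was 11.43 on HFD + inul PB replicate 4, the array with raised adipocyte and pancreas markers, and 9.69 to 10.23 on the other 5. Without that array the difference was 0.52, and it missed the criteria, as it did without HFD replicate 1, 3 or 5 (0.70 to 0.72). Cox7a1 also missed the criteria in a fit of only these diets and without both arrays that stood apart. Other respiratory chain genes differed little, with medians of 0.01 for complex I (24 of 36 higher), 0.01 for complexes II to IV (19 of 30 higher) and 0.02 for ATP synthase (12 of 18 higher).

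Of the other falls, Rarres1, a retinoic acid responsive gene, ran from 11.89 to 12.63 on HFD and from 11.12 to 12.22 on HFD + inul PB, and 5 of 6 of the latter lay below every HFD array. Rarres1 fell by 0.70 (SE 0.20, limma P = 0.00176, adjusted P = 1, exact permutation P = 0.0130), and without both arrays that stood apart its difference of -0.61 missed the limit on P. Cyp21a1, the steroid 21-hydroxylase, fell by 0.66 (SE 0.23, limma P = 0.00928, exact permutation P = 0.0563) with 3 of 6 arrays below the HFD range. It missed the criteria in a fit of only these diets, with slide as a block, with weighted arrays, without both arrays that stood apart, and when any 1 of replicates 1 to 5 of HFD or 3 to 5 of HFD + inul PB was left out (differences from -0.69 to -0.52). The axon guidance receptor gene Robo2 fell by 0.76 (limma P = 0.00883, exact permutation P = 0.0130), and a second probe had a difference of 0.12. Robo2 missed the criteria under quantile normalisation, each other background treatment (the values the authors processed included), a fit of only these diets, weighted arrays and without both arrays that stood apart, with a difference down to -0.34, and in omissions of replicate 1, 3 or 4 of HFD or 3, 4 or 5 of HFD + inul PB. Probes of Slc7a5 (1.02), Slc17a8 (-0.73) and Krtap5-5 (-0.96) met the criteria, but the brightest probe of each gene did not (0.12, -0.69 and -0.01). Ube2d2a, a reference gene in the study, had a difference of 0.01 (SE 0.06).

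**Figure D5:**
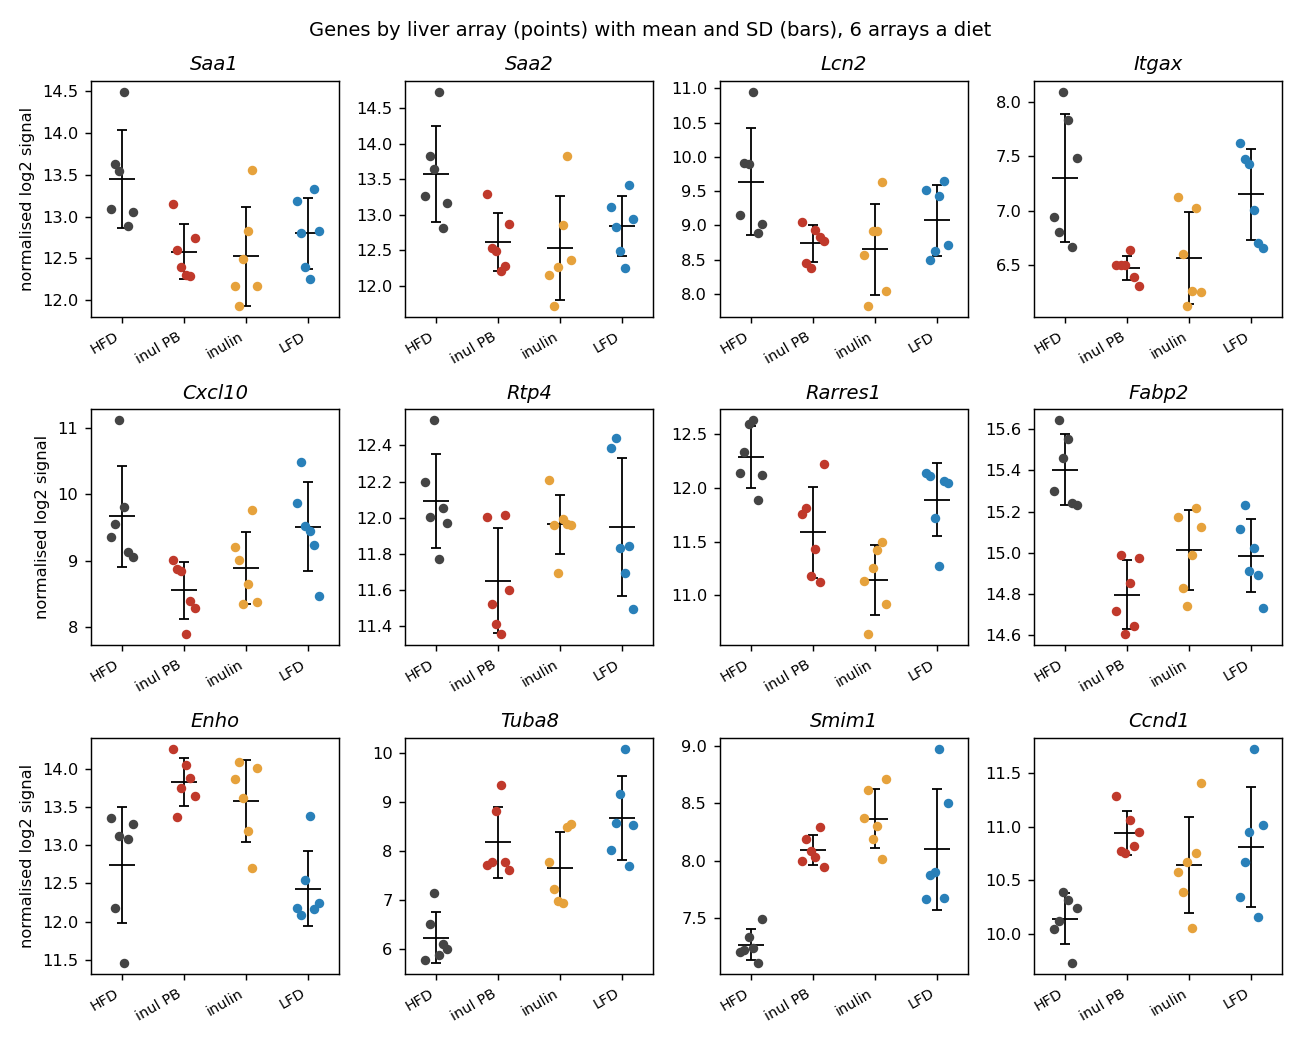
Normalised log2 signal of 12 genes on each of 24 liver arrays (points) with mean and SD (bars) for HFD, HFD + inul PB, HFD + inulin and LFD, 6 arrays each; each panel has its own axis. HFD + inul PB lies apart from HFD for Itgax, Cxcl10, Fabp2, Enho, Tuba8, Smim1 and Ccnd1, and overlaps it for Saa1, Saa2, Lcn2, Rtp4 and Rarres1.

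The remaining lists had small medians, and the medians of the stellate cell, adipocyte, glycolysis, glutathione, hepatokine, male-biased, female-biased and respiratory chain lists changed sign under at least one alternative setting. Ribosomal protein genes had a higher mean in 71 of 76 cases, but with a median of only 0.07 (0.01, 0.13 and 0.03 within slides). In the unfolded protein and amino acid stress list 22 of 25 were lower, with a median of -0.10 that was 0.22 on slide 2, and in the proteasome list 29 of 39 were lower, with a median of -0.04. The heat shock and immediate early list had 14 of 18 lower (median -0.07). The hepatocyte identity list had 13 of 16 lower (median -0.04), the xenobiotic list 13 of 21 lower (median -0.05), the glutathione and NRF2 list 12 of 24 lower (median -0.00), the hepatokine list 11 of 24 lower (median 0.02) and the male-biased and female-biased lists 8 of 16 and 10 of 18 lower (medians -0.01 and -0.02). Endothelial genes were higher in 11 of 13 cases (median 0.07), with 1 member at an unadjusted limma P under 0.05 in each direction. The lower one was Lyve1, a sinusoidal receptor, at -0.56 (SE 0.22). Stellate cell and matrix genes had 10 of 19 lower means (median -0.01), and the highest member lay at 1.25. The members with an unadjusted limma P under 0.05 were Dcn, decorin, at -0.29 (SE 0.10) and Lrat, which stores retinol, at -0.53 (SE 0.20). Cholangiocyte genes were lower in 5 of 7 cases (median -0.09), and adipocyte genes in 6 of 8 (median -0.05).

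The same HFD arrays serve the comparisons of plain inulin and of LFD with HFD, so the values stand side by side without a test of their likeness. Against HFD, Saa1 differed by -0.93 with HFD + inulin and by -0.65 with LFD, Itgax by -0.74 and -0.15, Enho by 0.83 and -0.31, and Cxcl10 by -0.78 and -0.16. Fabp2 differed by -0.39 and -0.42, Tuba8 by 1.43 and 2.45, and Smim1 by 1.11 and 0.84. The list medians with HFD + inulin and LFD were 0.21 and 0.13 for cholesterol synthesis, 0.07 and 0.12 for macrophage genes, -0.10 and -0.04 for interferon genes, -0.09 and -0.05 for acute phase genes, -0.27 and 0.39 for MHC class II and 0.10 and 0.59 for fatty acid synthesis.

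HFD + inulin held plain inulin, and HFD + inul PB inulin esters, at the same share of weight and for the same time. The esters carry propionate or butyrate, whose weight counts in that share. The diets therefore differ in the acids carried and in the weight of inulin itself. Between them 110 probe IDs were changed (0.198%), 77 higher (0.138%) and 33 lower (0.0593%) with the esters, and limma listed 1275 probe IDs at an unadjusted P under 0.05 (2.29%) and 0 after adjustment. Of 93 named genes 6 had an unadjusted limma P under 0.05 for this difference, and the adjusted P of each was 1. Cyp1a1 was higher with the esters by 0.90 (95% interval 0.31 to 1.48), and Rarres1 by 0.45 (0.04 to 0.85). For Saa1 the difference was 0.06 (-0.52 to 0.64), for Enho 0.25 (-0.39 to 0.89), for Itgax -0.09 (-0.58 to 0.40), for Cxcl10 -0.34 (-1.05 to 0.37) and for Fabp2 -0.22 (-0.43 to 0.00). The intervals of these 5 genes reach from below 0 to 0 or above, which does not show that the diets act alike. The list medians of HFD + inul PB minus HFD + inulin were -0.23 for macrophage genes, -0.17 for interferon genes, 0.08 for cholesterol synthesis and -0.00 for acute phase genes, against -0.00 over all genes. The droplet gene Hilpda, also among these 6, was lower with the esters by 0.34. Against LFD, HFD + inul PB differed in 377 probe IDs (0.677%), 157 higher (0.282%) and 220 lower (0.395%), of which 2 passed adjustment (0.00359%).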

How the data were processed

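RNA of 24 livers was measured on one-colour Agilent arrays, and the deposited files hold spot intensity from Feature Extraction 10.7.3.1. The authors also deposited a table of log2 values, which followed the log2 median signal of the arrays (r from 0.9992 to 1) and was used as an alternative. Per the labels the authors used limma, whose version is not given in the sources used here. Here, log2 processed intensity of non-control, non-outlier spots was normalised by cyclic loess (span 0.7, 3 iterations) over the 24 liver arrays, and spots of 1 probe were averaged. limma 3.58.1 in R 4.3.3 fitted 4 diets with lmFit and eBayes, with Benjamini-Hochberg adjustment over 55681 probes. Exact permutation tests were two-sided. Pathway lists were described by counts and medians, with the brightest probe of each gene. Symbols were found for 27509 probes, of 20887 genes. The normexp alternative used the median spot signal, since the files hold no mean signal.

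Named genes were the 9 liver genes the study names as measured, up to 12 genes with the largest rise and 12 with the largest fall among those past a fold of 1.5 and P under 0.01 and well above background on at least 12 of 24 liver arrays, the 2 members of each list with the lowest P, and every list member that met these criteria. Other list members were named after their values were seen. The comparison, members and lists were chosen with earlier results of these data known. The fit was tested on simulated data. Alternatives were other scalings, background corrections and filters, a fit of 2 diets, slide or replicate blocks, array weights and leaving out arrays. Figures were drawn with matplotlib 3.10.9. Values of some genes are not reported here, though list counts and medians include them.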

Additional observations from a re-analysis of the deposited data

Results flagged for a closer look

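Of 186 groups of 6 arrays checked for the named genes, 15 held an array that lay far from the other 5 by Dixon's test at the 95% level, which chance gives in about 1 of 20 groups. Of these, 13 are given.

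On HFD + inul PB replicate 4, the array with high pancreas and adipocyte markers, the log2 signal was 12.18 for the adipocyte gene Cfd (3.16 to 6.37 on the other 5), 10.35 for Cpa1 (3.05 to 4.80), 8.37 for Cela2a (4.11 to 4.97), 5.22 for Nnat (3.08 to 3.23) and 11.43 for Cox7a1 (9.69 to 10.23). On the same array Atp5j2 was 15.84, where the others lay between 15.82 and 15.83.

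On HFD replicate 3 it was 11.11 for Cxcl10 (9.05 to 9.80), 15.79 for Cfb (16.10 to 16.26) and 3.89 for Rgs7bp (4.74 to 4.95). On other HFD arrays, Pcx was 15.92 on replicate 4 (15.36 to 15.56) and Por 12.90 on replicate 1 (14.19 to 14.93). On other HFD + inul PB arrays, Pdia6 was 16.22 on replicate 3 (15.35 to 15.56) and Cox8a 16.07 on replicate 2 (16.50 to 16.68).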

How the results depend on the processing

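The count of probe IDs changed between HFD + inul PB and HFD was 39 with normexp background correction, 52 with no background correction, 54 with the authors' processed values and 60 among probes well above background. The counts against HFD + inulin under these settings were 7, 16, 16 and 24, and against LFD 142, 175, 175 and 232. The last of these settings kept 25813 of 55681 probes, those well above background on at least 12 of 24 liver arrays. Its counts of 60, 24 and 232 come from fewer probes, so a smaller count there is not by itself a lower share. Scaling to the 75th percentile gave 62 higher and 80 lower. Leaving out 1 array at a time gave 134 to 210 against HFD, 108 to 216 against HFD + inulin and 326 to 618 against LFD, each highest without HFD + inul PB replicate 3. A fit of only the compared diets gave 1 probe with an adjusted limma P under 0.05 against HFD. With the replicate number as a block 209 probe IDs were changed, 104 higher and 105 lower. Under this block Saa1, Saa2 and Cyp21a1 missed the limit on P, and Lcn2 and Ccr2 met it. Same-numbered deviations correlated between 0.072 and 0.278, and 4 of 6 correlations were over 0.1, so pairing by number was not established. Of the HFD + inul PB arrays 5 of 6 correlated best with the HFD array of their number, a hint from the data only. In every diet the replicate number also fixed the slide and the row on the slide. Pairing by number and array position therefore cannot be told apart.

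Complement had a median of 0.0306 with 75th percentile scaling, 0.0337 without both arrays that stood apart and -0.0398 to 0.0214 leaving out 1 array. Female-biased genes had 0.0814 among probes well above background, -0.107 without both arrays and -0.0912 to 0.018 leaving out 1. Leaving out 1 array, the difference ran from -0.0067 to 0.0333 for Ube2d2a, from -0.0517 to 0.2642 for Slc7a5 and from -0.1184 to 0.1194 for Krtap5-5. The cause was not tested. The acute phase, macrophage, interferon, MHC class II, cholesterol and gluconeogenesis medians kept their sign under all alternatives run. So did several small medians, such as those of hepatocyte identity (-0.04), ribosomal protein (0.07) and proteasome genes (-0.04). Dim probes limit the calls of Ier3, Wnk4, Lefty1 and Rgs7bp, and the number of arrays limits the precision.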
